A study of Mus musculus with 30 samples.

Results

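The genes described here are 9 secreted factors that have been linked to cancer cachexia, the wasting of muscle and fat that accompanies some tumors: Il6, Lif, Il11, Osm, Gdf15, Inhba, Pthlh, Tnf and Il1a. They were chosen by name and all 9 were found, out of 53431 gene entries in the deposited tables. Transcript levels were compared between CT-26 and Colon 26, a pair of mouse colon adenocarcinoma models from the BALB/c strain, of which Colon 26 is also a standard model of cachexia. For each model there were 3 libraries of cells grown in culture and 4 libraries of tumors at each of 3 sizes, 30 libraries in 8 groups. Tumors came from female BALB/c hosts that carried 1 of the lines as a flank implant, with measured volumes of 102.9 to 145.86 mm3 in the 100 mm3 groups, 400.47 to 466.73 mm3 in the 400 mm3 groups and 807.93 to 963.18 mm3 in the 800 mm3 groups. The age of the mice was not given. The labels carry a description of antibody dosing, but no tumor label names an antibody, and they do not say whether the sequenced tumors came from dosed mice. Each model is 1 established line, so a difference between models is a difference between these lines and the tumors they form. Each tumor had its own volume, whereas nothing said that the culture libraries came from separate cultures, so their p-values measure only the spread between these libraries.

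Total estimated counts ran from 21384730 to 39722586 per library. The Colon 26 cultures (36042940 to 39722586) were deeper than the CT-26 cultures (21384730 to 27856380) and the library numbers in their titles come from another range, so that in culture a difference in library preparation and the difference between models cannot be told apart. Markers fixed for checking the labels gave a mixed picture of the epithelial origin. In the Colon 26 cultures 4 of 5 epithelial markers (Epcam, Krt18, Krt19 and Cdh1) had at most 3 counts in every library and the 5 markers summed to 0.135 to 0.171 CPM (counts scaled to a common library size), and in the CT-26 cultures Epcam and Cdh1 were at that floor while the sum was 16.1 to 16.8 CPM. Ptprc, the pan-leukocyte marker, was at most 0.209 CPM in both cultures and 43.3 to 186 CPM in tumors, although the macrophage list summed to 61.1 to 68.2 CPM in the CT-26 cultures (3.78 to 4.79 CPM in Colon 26). In tumors, therefore, a tumor value is a sum over cancer cells and host cells. In such bulk samples, fewer cells of a type and less RNA per cell cannot be told apart.

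Cachexia factors act on distant tissue through separate receptor systems. IL-6, LIF, IL-11 and oncostatin M share the receptor chain gp130 (Il6st) and signal mainly through STAT3, and IL-6 and LIF have each been described as drivers of wasting in Colon 26 hosts. GDF15 is a stress-induced member of the TGF-beta superfamily that lowers food intake through GFRAL, a receptor of the hindbrain. Activin A, a dimer of the Inhba product, signals through activin type II receptors and SMAD proteins and is held in check by follistatin. Parathyroid hormone-related protein (Pthlh) acts on the receptor PTH1R in bone, kidney and fat. TNF and IL-1alpha are inflammatory cytokines that activate NF-kB and are made largely by leukocytes.

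The secreted factors that led in each line differed. On the length-scaled level (FPKM, fragments scaled by transcript length and library size), cultured Colon 26 cells had Gdf15 highest of the 9 at 39.4 ± 1.23 (SD, n = 3), then Lif at 33.7 ± 1.09 and Inhba at 12.6 ± 0.235. Cultured CT-26 cells had Inhba highest at 22.5 ± 0.753 FPKM, then Lif at 12.2 ± 0.609 and Il11 at 4.87 ± 0.304, while Gdf15 stood at 0.0672 ± 0.0358. In 800 mm3 tumors the order was Lif (13.1 ± 1.64 FPKM, n = 4), Pthlh (5.11 ± 0.938) and Inhba (4.39 ± 0.872) in Colon 26, the last pair lying within their spread of each other. In CT-26 tumors of that size it was Inhba (11.5 ± 1.53 FPKM), Pthlh (9.31 ± 1.72) and Il11 (8.34 ± 2.69), neighbours whose ranges of mean ± SD overlapped. Il6 had group means of 0.287 to 1.502 FPKM over the 8 groups.

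**Figure D1:**
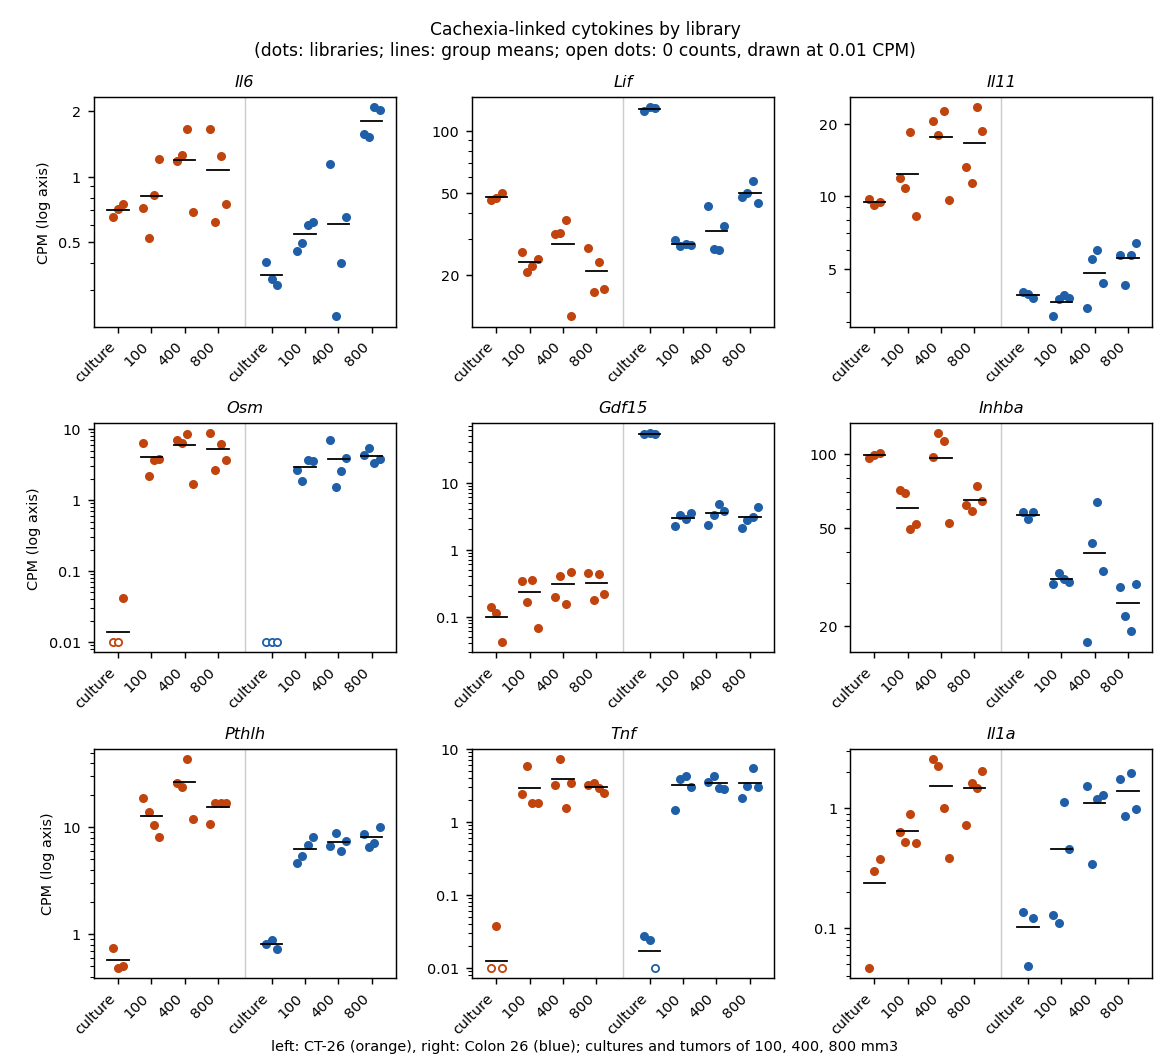
CPM of the 9 genes in each of the 30 libraries on log axes, CT-26 on the left and Colon 26 on the right of each panel; dots are libraries, lines are group means and open dots mark 0 counts. Gdf15 separated the models in every library and was highest in the Colon 26 cultures (52.9 to 54.3 CPM), whereas Osm and Tnf were at or near 0 in all cultures and present in all tumors.

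All 9 genes are annotated as protein-coding in GENCODE M21 (build GRCm38). Lif (chr11:4257557-4272514, plus strand) and Osm (chr11:4236420-4241026, plus strand) are neighbours, and Gdf15 lies at chr8:70629393-70632456 (minus), Il11 at chr7:4772373-4782859 (minus), Il6 at chr5:30013114-30019981 (plus), Inhba at chr13:16011851-16031621 (plus), Pthlh at chr6:147252101-147264183 (minus), Tnf at chr17:35199381-35202007 (minus) and Il1a at chr2:129299610-129309972 (minus). Exons of Il1a overlap those of Gm14023 on the opposite strand and 22 of its 30 values were not whole numbers, so that its low counts are uncertain; the other 8 genes overlapped no exon of another gene and all their values were whole. RefSeq start-site windows (GRCm38.p6) were matched for 8 of 9 genes, the exception being Osm. The bases just before a start are shown for Gdf15, the gene that separated the models most. They are also shown for the gp130 ligands Lif and Il11, which were called between models. Il6 is shown as well, called higher in Colon 26 tumors of 800 mm3 than in those of 100 mm3. For Il11 the window belongs to the inner of 2 starts. Capitals mark matches on either strand to 1 of 7 short motifs: AP-1 (TGANTCA), the cAMP response element core (TGACGT), NF-kB (GGGANNTTCC), C/EBP (TTGNGCAA), the C/EBP-ATF response element (TGATGNAA), STAT (TTCNNNGAA) and the TATA box (TATAAA).
Gdf15, chr8:70632457-70632706, minus strand: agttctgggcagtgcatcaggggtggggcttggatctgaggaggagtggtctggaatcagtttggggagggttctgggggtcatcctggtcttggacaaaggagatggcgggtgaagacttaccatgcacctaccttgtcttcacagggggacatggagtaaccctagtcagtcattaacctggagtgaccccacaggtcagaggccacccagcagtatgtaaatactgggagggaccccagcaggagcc
Lif, chr11:4257318-4257556, plus strand: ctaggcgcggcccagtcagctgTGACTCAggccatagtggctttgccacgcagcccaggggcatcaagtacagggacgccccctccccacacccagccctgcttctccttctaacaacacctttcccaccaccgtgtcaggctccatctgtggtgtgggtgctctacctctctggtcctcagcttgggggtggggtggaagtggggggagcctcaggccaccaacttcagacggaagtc
Il11, chr7:4778142-4778391, minus strand: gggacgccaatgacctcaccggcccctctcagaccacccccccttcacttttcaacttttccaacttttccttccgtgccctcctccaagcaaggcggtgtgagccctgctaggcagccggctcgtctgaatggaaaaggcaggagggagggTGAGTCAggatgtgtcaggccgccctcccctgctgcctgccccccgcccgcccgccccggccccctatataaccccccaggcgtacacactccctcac
Il6, chr5:30012864-30013113, plus strand: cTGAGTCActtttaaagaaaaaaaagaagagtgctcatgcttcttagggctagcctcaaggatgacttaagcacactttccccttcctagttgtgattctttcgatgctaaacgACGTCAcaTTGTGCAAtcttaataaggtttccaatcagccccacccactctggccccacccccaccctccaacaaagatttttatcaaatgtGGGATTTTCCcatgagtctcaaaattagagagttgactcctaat
The AP-1 letters stood in the windows of Lif, Il11 and Il6 and before Il1a, and 6.75% of 32851 promoter windows hold them. Motifs were searched in 250 bases before the start in every window, of which 239 are printed for Lif. The Il6 window also held the cAMP response element core (in 6.47% of all windows), the C/EBP letters (2.61%) and the NF-kB letters (1.21%). None of the 7 motifs matched in the Gdf15 window, and the STAT letters, present in 7.02% of all windows, and the C/EBP-ATF letters (3.45%) matched in none of the 4. Among the other members the TATA box letters (12.4% of all windows) stood before Inhba, Tnf and Il1a. They began 91, 29 and 32 bases before the start. These matches describe letters in a window and were not tested for binding.

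The first comparison asked which factors the lines themselves express differently in culture. Of the 9 genes 6 had enough counts to be tested, and 3 were called, against 22.9% of all 14334 genes tested (called means an adjusted p of at most 0.1 from edgeR's quasi-likelihood test and a log2 fold change of at least 1). Gdf15 and Lif were higher in Colon 26 and Il11 was lower. Osm, Tnf and Il1a were too low for testing.

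Gdf15 was all but absent from CT-26. The 3 CT-26 cultures held 3, 3 and 1 counts (0.140, 0.111 and 0.0417 CPM) and the 3 Colon 26 cultures 1955, 2258 and 2190 counts (52.9, 54.3 and 53.5 CPM). Gdf15 was thus at least 384-fold higher in Colon 26, the bound set by 3 counts in the shallowest CT-26 culture. Its fitted log2 fold change of 9.11 ± 0.12 (SE; adjusted p = 1.7e-18, edgeR) depends on how a near-zero group is handled. In tumors the gap was narrower.

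In tumors of 100 mm3 Gdf15 reached 0.338, 0.163, 0.351 and 0.0686 CPM in CT-26 and 2.26, 3.27, 2.85 and 3.51 CPM in Colon 26. At 400 mm3 the CT-26 tumors gave 0.197, 0.409, 0.153 and 0.470 CPM against 2.32, 3.26, 4.74 and 3.76 CPM, and at 800 mm3 0.454, 0.176, 0.438 and 0.218 CPM against 2.11, 2.81, 3.11 and 4.28 CPM. Every Colon 26 tumor was above every CT-26 tumor. The log2 fold change of Colon 26 over CT-26 was 3.70 ± 0.39 at 100 mm3 (adjusted p = 8.0e-05), 3.50 ± 0.38 at 400 mm3 (adjusted p = 0.00014) and 3.26 ± 0.35 at 800 mm3 (adjusted p = 3.4e-05, all edgeR). The CT-26 tumors held 2 to 13 counts each, so the size of the fold rests on few reads.

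Lif, the leukemia inhibitory factor, was also higher in Colon 26 cells. Levels were 46.1, 47.2 and 50.2 CPM in the CT-26 cultures and 125, 130 and 129 CPM in the Colon 26 cultures, a 2.78-fold difference (log2 1.47 ± 0.04, adjusted p = 3.5e-15, edgeR). The groups did not overlap. In tumors the difference was called at 800 mm3 only. The change of this difference from 100 to 800 mm3 was tested and not called (log2 0.95 ± 0.19, adjusted p = 0.11, edgeR). At 100 mm3 the values were 25.9, 20.6, 22.1 and 23.9 CPM in CT-26 and 29.5, 27.7, 28.4 and 27.9 CPM in Colon 26 (log2 0.29 ± 0.08, adjusted p = 0.013), under the minimum fold. At 400 mm3 the CT-26 tumors had 31.5, 32.1, 37.0 and 12.7 CPM and the Colon 26 tumors 43.3, 26.8, 26.3 and 34.6 CPM, overlapping groups (log2 0.21 ± 0.31, adjusted p = 0.62). At 800 mm3 the CT-26 tumors had 27.0, 16.5, 23.2 and 17.1 CPM and the Colon 26 tumors 47.9, 49.9, 57.1 and 44.5 CPM. Lif was then 2.38-fold higher in Colon 26 (log2 1.25 ± 0.15, adjusted p = 8.9e-05, edgeR), with every Colon 26 tumor above every CT-26 tumor.

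Il11, a gp130 cytokine known from stroma and epithelium, ran the other way at every stage. The CT-26 cultures had 9.78, 9.24 and 9.43 CPM and the Colon 26 cultures 3.98, 3.90 and 3.78 CPM, 2.35-fold lower in Colon 26 (log2 -1.23 ± 0.09, adjusted p = 2.4e-09, edgeR). In tumors of 100 mm3 it was 11.9, 10.8, 18.5 and 8.30 CPM against 3.17, 3.74, 3.90 and 3.76 CPM, which is 3.42-fold lower (adjusted p = 0.00027). At 400 mm3 it was 20.6, 18.0, 22.6 and 9.62 CPM against 3.43, 5.46, 5.97 and 4.34 CPM (3.70-fold lower, adjusted p = 0.00077). At 800 mm3 it was 13.3, 11.4, 23.5 and 18.7 CPM against 5.71, 4.27, 5.69 and 6.38 CPM (3.05-fold lower, adjusted p = 0.00022). The lowest CT-26 library was above the highest Colon 26 library in each of the 4 comparisons.

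Il6 was close to the detection limit in both models, with 6 to 63 counts in each of the 30 libraries. The CT-26 cultures gave 0.652, 0.705 and 0.751 CPM and the Colon 26 cultures 0.406, 0.337 and 0.317 CPM (log2 -0.94 ± 0.30, adjusted p = 0.0084), a difference under the minimum fold that became a call without the first Colon 26 culture (-1.03, adjusted p = 0.014). No call was made in tumors: the log2 fold change of Colon 26 over CT-26 was -0.61 ± 0.29 at 100 mm3 (adjusted p = 0.11), -0.98 ± 0.47 at 400 mm3 (adjusted p = 0.13) and 0.76 ± 0.31 at 800 mm3 (adjusted p = 0.063, all edgeR). Single tumors moved both larger sizes across the threshold. Without the first Colon 26 tumor of 400 mm3 the value was -1.48 (adjusted p = 0.024) and without the fourth CT-26 tumor -1.17 (adjusted p = 0.084), both calls. Without the first CT-26 tumor of 800 mm3 it was 1.05 (adjusted p = 0.012), also a call.

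Osm, which is made mainly by myeloid cells, had at most 1 count in any culture. Tumor values ran from 1.71 to 8.74 CPM in CT-26 and from 1.52 to 7.00 CPM in Colon 26, and the groups overlapped at each size. The log2 fold change between models was -0.46 ± 0.33, -0.67 ± 0.55 and -0.33 ± 0.33 at 100, 400 and 800 mm3 (adjusted p = 0.29, 0.36 and 0.43, edgeR).

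Inhba, which encodes the subunit of activin A, was lower in Colon 26 throughout, but its fold change passed the minimum only in the larger tumors. The CT-26 cultures had 96.5, 98.6 and 101 CPM and the Colon 26 cultures 57.9, 54.3 and 57.9 CPM (log2 -0.75 ± 0.03, adjusted p = 6.3e-12). At 100 mm3 the log2 fold change was -0.97 ± 0.12 (adjusted p = 0.00025), just under the minimum. It was called there without the third CT-26 tumor (-1.05) or without the fourth (-1.04). At 400 mm3 the values were 96.96, 121, 112 and 52.6 CPM in CT-26 and 17.2, 43.4, 63.9 and 33.6 CPM in Colon 26, overlapping through 1 tumor of each model (2.43-fold lower, log2 -1.28 ± 0.39, adjusted p = 0.025, edgeR). At 800 mm3 they were 62.3, 58.6, 74.3 and 64.6 CPM against 28.8, 21.9, 19.1 and 29.8 CPM, with no overlap (2.62-fold lower, log2 -1.39 ± 0.14, adjusted p = 2.7e-05, edgeR).

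Pthlh was hardly expressed in culture (12 to 37 counts a library) and higher in CT-26 tumors than in Colon 26 tumors. At 100 mm3 the tumors had 18.8, 13.8, 10.5 and 8.06 CPM in CT-26 and 4.68, 5.42, 6.78 and 8.05 CPM in Colon 26 (2.07-fold lower, log2 -1.05 ± 0.27, adjusted p = 0.011, edgeR). That call stood near the minimum fold. It was lost without the first CT-26 tumor (-0.79) and without the first (-0.93) or second (-0.97) Colon 26 tumor, with scaling by library size only (-0.99), and with limma on log2(FPKM + 1) (-0.81) or log2(FPKM + 0.1) (-0.94). At 400 mm3 the values were 26.0, 24.0, 43.3 and 11.97 CPM against 6.63, 8.83, 6.03 and 7.52 CPM (3.65-fold lower, log2 -1.87 ± 0.35, adjusted p = 0.0024). At 800 mm3 they were 10.8, 16.9, 16.9 and 16.7 CPM against 8.75, 6.51, 7.11 and 10.00 CPM (log2 -0.93 ± 0.18, adjusted p = 0.0016), not a call by fold, and a call without the first CT-26 tumor (-1.06) or the fourth Colon 26 tumor (-1.05). All CT-26 tumors lay above all Colon 26 tumors of the same size, if only just at 100 mm3 (8.06 against 8.05 CPM).

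Tnf, like Osm, had at most 1 count in any culture and did not separate the models in tumors. It ran from 1.57 to 7.23 CPM in CT-26 tumors and from 1.45 to 5.55 CPM in Colon 26 tumors, with log2 fold changes between -0.18 ± 0.40 and 0.19 ± 0.27 and adjusted p from 0.59 to 0.90 (edgeR). Il1a ranged from 0.385 to 2.56 CPM in CT-26 tumors and from 0.110 to 1.98 CPM in Colon 26 tumors and was not called at any size (log2 -0.55 ± 0.65, -0.50 ± 0.60 and -0.08 ± 0.36). At 100 mm3 it would be called without the third Colon 26 tumor (-1.52, adjusted p = 0.047, edgeR).

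Across tumors, 3 of 9 genes were called at 100 mm3, 4 of 9 at 400 mm3 and 4 of 9 at 800 mm3, against 13.2%, 14.3% and 14.1% of all genes tested. Gdf15 was called higher and Il11 lower in Colon 26 in each of the 4 comparisons; the culture call of Il11 fell under the minimum fold with limma on log2(FPKM + 1) (-0.91). The median log2 fold change of the members tested was -0.09 in culture, -0.55 at 100 mm3, -0.67 at 400 mm3 and -0.08 at 800 mm3, beside 0.01, -0.00, 0.03 and -0.01 for all genes. Where they were called, Gdf15 and Lif were higher in Colon 26 and Il11, Inhba and Pthlh were lower. A shift of the members as a group was not tested.

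**Figure D2:**
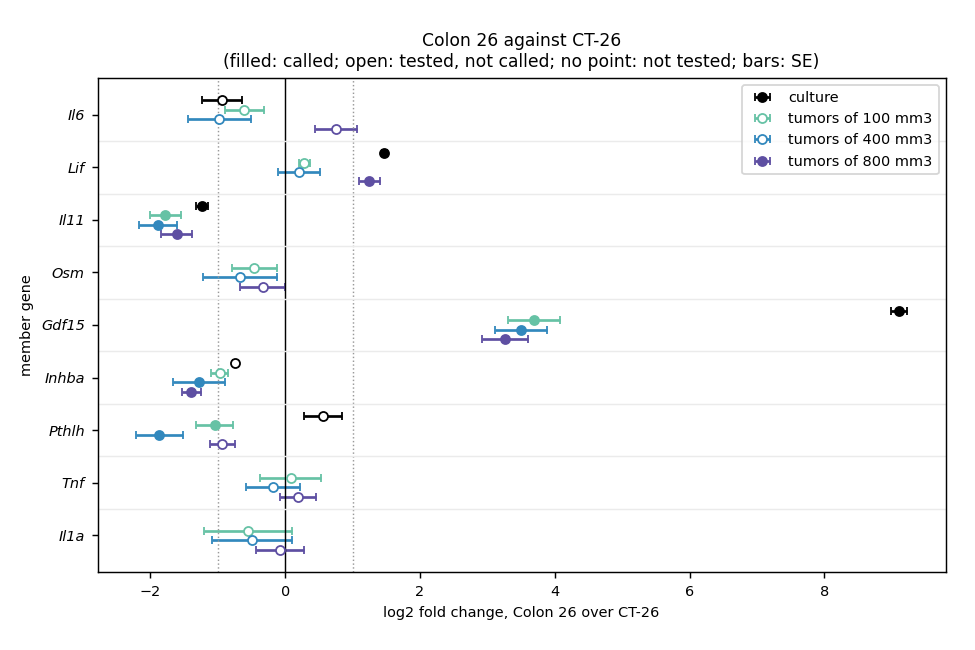
Log2 fold change of Colon 26 over CT-26 for each gene in culture and at the 3 tumor sizes, with SE bars; filled points were called, open points were tested and not called, and dotted lines mark the minimum fold. Gdf15 lay between 3.26 and 3.70 in tumors and Il11 between -1.89 and -1.23 in all 4 comparisons; the culture point of Gdf15 rests on a CT-26 group at the floor.

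Markers of some host cell types also differed between the models. Of all genes tested, 13.2%, 14.3% and 14.1% were called at 100, 400 and 800 mm3. Mast cell markers (Cpa3, Mcpt4, Kit and Ms4a2) summed to 17.8 to 76.3 CPM in CT-26 tumors and 4.92 to 11.2 CPM in Colon 26 tumors, with 3 of 4 called lower in Colon 26 at each size. Neutrophil markers summed to 15.7 to 74.3 CPM in CT-26 tumors of 400 and 800 mm3 and to 3.56 to 12.5 CPM in those of Colon 26, with 4 of 4 and 3 of 4 markers tested called lower; at 100 mm3 1 of 4 was called higher, and Ly6g was at the floor in all tumor groups. T cell markers were called lower in Colon 26 at 400 mm3 only (4 of 5). Macrophage sums (248 to 1580 CPM in CT-26, 774 to 1680 CPM in Colon 26), fibroblast sums (874 to 1640 CPM and 879 to 2110 CPM) and endothelial sums (58.7 to 195 CPM and 87.2 to 143 CPM) overlapped, as did adipocyte sums (0 to 14.7 CPM and 0.0361 to 24.7 CPM). Fibroblast markers were called both ways (2 of 6 higher and 1 lower in Colon 26 at 100 and 400 mm3, 1 and 1 at 800 mm3), 1 of 6 macrophage markers was higher at 400 mm3, 1 adipocyte marker was higher at 800 mm3, and of 5 epithelial markers 2, 1 and 2 were higher and 1 lower at each size. Keratinocyte sums were 2.92 to 6.03 CPM in all tumors but 1 CT-26 tumor of 800 mm3 (80.9 CPM). Skeletal muscle markers were called lower in Colon 26 at 800 mm3 (5 of 5). Their part in the differences of Il11, Inhba and Pthlh was not tested.

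**Figure D3:**
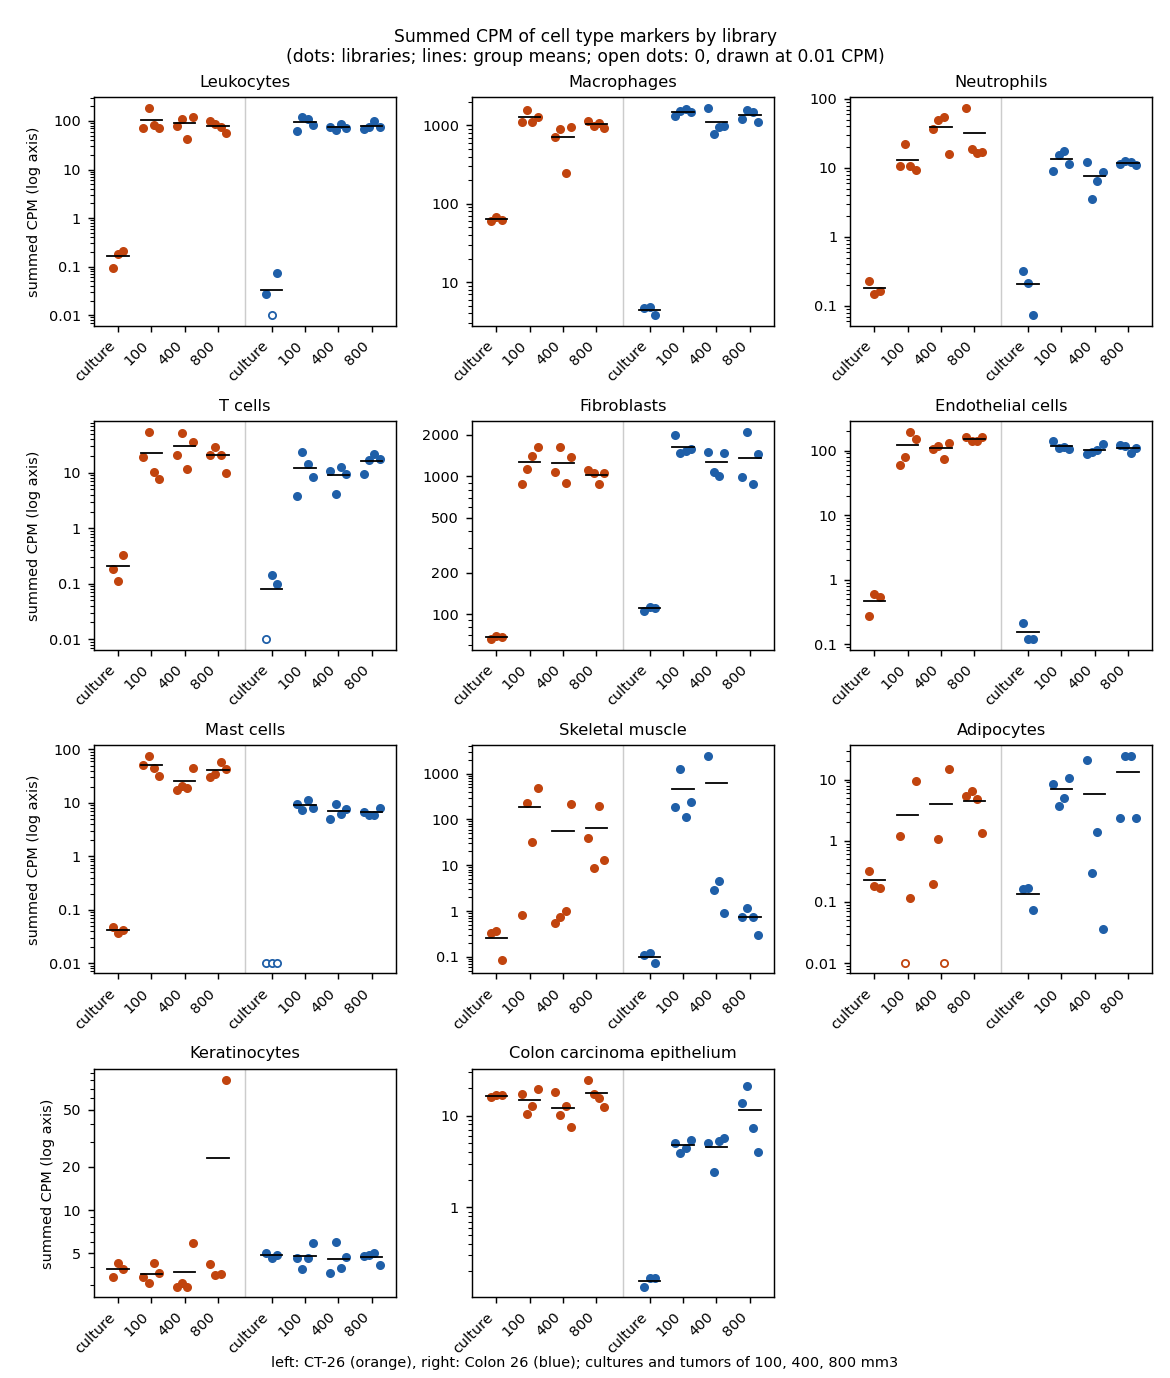
Summed CPM of the markers of 11 cell types in each library on log axes, with group means as lines and open dots for 0. Mast cell sums were higher in every CT-26 tumor (17.8 CPM and above) than in any Colon 26 tumor (11.2 CPM and below), and skeletal muscle sums ran from 0.295 to 2450 CPM across tumors.

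The next comparison set small tumors against the cultured cells of the same model. It is a contrast of tissue with pure cells, and the same 100 mm3 and culture libraries enter both the model and the tissue comparisons. The library numbers of the cultures lie outside the range of the tumors, furthest for Colon 26. A difference in library preparation therefore cannot be told apart from the tissue change, or from its difference between models. In CT-26 8 members were tested and 5 were called (Osm, Pthlh, Tnf and Il1a higher, Lif lower), against 32.2% of all genes. In Colon 26 8 were tested and 5 were called (Osm, Pthlh and Tnf higher, Lif and Gdf15 lower), against 26.9% of all genes.

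Osm and Tnf rose with the tissue. Osm rose from 0 or 1 counts in each culture to 68 to 152 counts in CT-26 tumors of 100 mm3 and 68 to 98 counts in Colon 26 tumors of that size, at least 28.8-fold and at least 36.4-fold higher. Tnf rose from 0 or 1 counts to 47 to 177 counts in CT-26 and 45 to 141 counts in Colon 26, at least 21.2-fold and at least 39.1-fold higher (adjusted p of Osm and Tnf from 9.2e-06 to 0.00015, edgeR). Ptprc rose over the same libraries from at most 0.209 CPM to 61.3 to 186 CPM. The part of leukocytes or of other host cells in the rise of Osm and Tnf was not tested. Il1a was called higher in CT-26 (log2 1.37 ± 0.51, adjusted p = 0.039, edgeR). The call was lost without the first CT-26 culture (0.92), with all 30 libraries in one fit, and with limma on log2(FPKM + 1) (0.25).

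Pthlh rose in both models. In CT-26 it went from 0.745, 0.483 and 0.501 CPM in culture to 8.06 to 18.8 CPM in 100 mm3 tumors, 22.3-fold higher (log2 4.48 ± 0.36, adjusted p = 1.5e-05, edgeR). In Colon 26 it went from 0.812, 0.890 and 0.732 CPM to 4.68 to 8.05 CPM, 7.63-fold higher (log2 2.93 ± 0.22, adjusted p = 2.9e-06, edgeR). Fibroblast sums rose beside it, from 65.8 to 69.5 CPM up to 882 to 1640 CPM in CT-26 and from 106 to 113 CPM up to 1480 to 2000 CPM in Colon 26, and their part in the rise was not tested.

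Gdf15 and Lif fell in Colon 26 tumors. Gdf15 went from 53.6 ± 0.73 CPM in culture (SD, n = 3) to 2.97 ± 0.55 CPM at 100 mm3 (n = 4), 18.0-fold lower (log2 -4.17 ± 0.11, adjusted p = 5.9e-09, edgeR). Lif went from 128 ± 2.39 CPM to 28.4 ± 0.82 CPM, 4.51-fold lower (log2 -2.17 ± 0.04, adjusted p = 7.5e-10, edgeR). In CT-26 Lif went from 47.8 ± 2.12 CPM to 23.1 ± 2.28 CPM, 2.06-fold lower (log2 -1.04 ± 0.08, adjusted p = 9.7e-06, edgeR). That call stood near the minimum fold and was lost with limma on log2(FPKM + 1) (-0.93). Inhba was lower in tumors of both models by less than the minimum fold (log2 -0.70 ± 0.14 and -0.87 ± 0.05). With limma on log2(FPKM + 1) or log2(FPKM + 0.1) it was called lower in both models (down to -1.18 in CT-26 and -1.23 in Colon 26). Il11 was not called in either model (log2 0.39 ± 0.24 and -0.09 ± 0.11, adjusted p = 0.18 and 0.48).

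**Figure D4:**
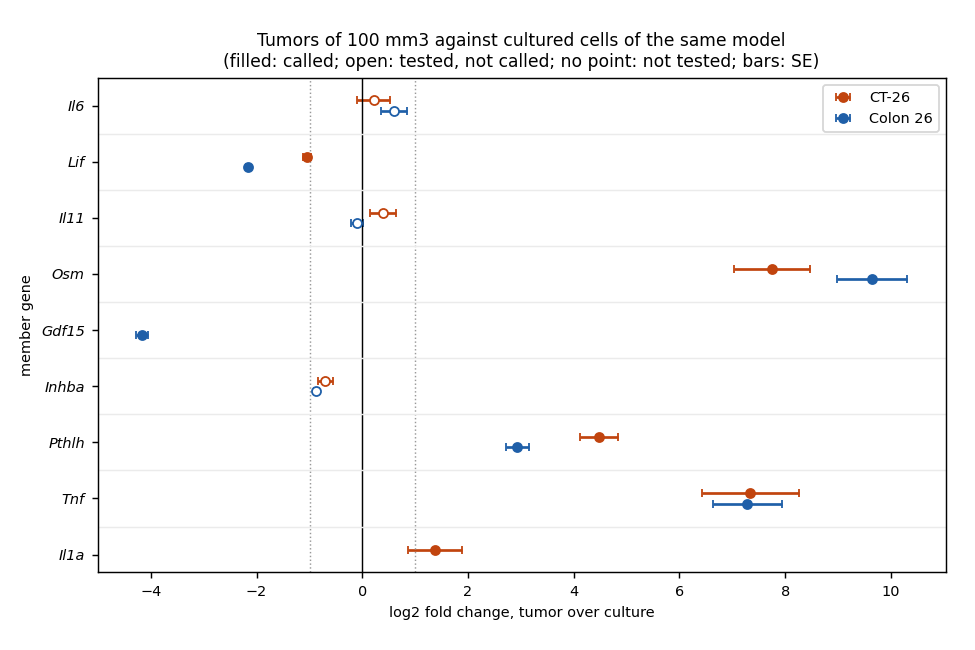
Log2 fold change of 100 mm3 tumors over culture within CT-26 and within Colon 26, with SE bars; filled points were called. Osm, Tnf and Pthlh lie to the right in both models and Lif to the left; the Osm and Tnf points rest on culture groups at the floor and are no bounds.

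The difference between models in this tissue change was tested as an interaction over the 4 groups. Of 9 genes 3 were called, all with a lower tumor-to-culture change in Colon 26, against 17.6% of all genes tested. Lif differed by -1.18 ± 0.08 on the log2 scale (adjusted p = 1.2e-07), Pthlh by -1.60 ± 0.44 (adjusted p = 0.0085) and Gdf15 by -5.39 ± 0.57 (adjusted p = 5.1e-06, all edgeR), the last with the CT-26 cultures at the floor. For Osm and Tnf, at the floor in both cultures, the interaction has no meaning as a size (SE 1.44 and 1.72). Il11 (-0.53 ± 0.28, adjusted p = 0.15) and Inhba (-0.22 ± 0.16, adjusted p = 0.28) were not called.

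Growth of the tumors from 100 to 800 mm3 changed few members. In CT-26 none of the 8 members tested was called at 400 or 800 mm3, where 0% and 0% of all genes were called by edgeR. At an unadjusted p under 0.05 by edgeR there were 3 members at 400 mm3 (Inhba, Pthlh and Il1a) and 1 at 800 mm3 (Il1a). Of all genes tested, 22.2% and 10.5% had such a p. DESeq2 called 1 member (Pthlh) and 0 members, beside 150 and 39 of all genes. The fourth CT-26 tumor of 400 mm3 stood low for several members, with 12.7 CPM of Lif, 9.62 of Il11, 1.71 of Osm, 52.6 of Inhba and 11.97 of Pthlh. It also had the highest skeletal muscle (220 CPM) and adipocyte (14.7 CPM) marker sums of its group. Its epithelial sum was the lowest (7.44 CPM), and the part of tissue content was not tested. Without this tumor, Pthlh (log2 1.29 ± 0.31, adjusted p = 0.059) and Il1a (1.59 ± 0.37, adjusted p = 0.055, edgeR) were called higher at 400 than at 100 mm3.

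In Colon 26 no member was called at 400 mm3, where 0.0131% of all genes were. At an unadjusted p under 0.05 by edgeR there were 0 members, beside 12.7% of all genes, and DESeq2 called 0 members. At 800 mm3 1 of 9 was called, Il6, against 1.33% of all genes. Il6 had 0.452, 0.495, 0.599 and 0.619 CPM in the 100 mm3 tumors and 1.56, 1.52, 2.08 and 2.03 CPM in the 800 mm3 tumors (14 to 18 and 49 to 63 counts), 3.30-fold higher with no overlap (log2 1.72 ± 0.20, adjusted p = 0.0057, edgeR). With limma on log2(FPKM + 1) the value was 0.76, under the minimum fold. Lif was higher beside it, going from 27.7 to 29.5 CPM up to 44.5 to 57.1 CPM, by less than the minimum fold (log2 0.80 ± 0.07, adjusted p = 0.0016). Il11 was higher by 0.59 ± 0.14 (adjusted p = 0.064) and Gdf15 by 0.04 ± 0.23 (adjusted p = 0.94, edgeR). Without the third Colon 26 tumor of 100 mm3 a second member was called, Il1a (2.66 ± 0.54, adjusted p = 0.068, edgeR).

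Skeletal muscle markers moved along the same comparison, from 110 to 1270 CPM in Colon 26 tumors of 100 mm3 to 0.295 to 1.19 CPM in those of 800 mm3, and their part in the change of Il6 was not tested. Leukocyte Ptprc did not separate these groups (61.3 to 120 CPM and 68.9 to 98.4 CPM). The model difference in growth, tested as an interaction, gave 0 called members against 0.0308% of all genes. The largest values were 1.35 ± 0.44 for Il6 (adjusted p = 0.23) and 0.95 ± 0.19 for Lif (adjusted p = 0.11, edgeR). Both had an unadjusted p under 0.05 by edgeR, as did 12.5% of all genes, and DESeq2 called 0 members. Without the first CT-26 tumor of 800 mm3 both were called (Il6 1.64, adjusted p = 0.082; Lif 1.10, adjusted p = 0.022, edgeR).

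The receptors of these factors were followed as a list of 14 genes. In the comparison of models 3 of 12 tested were called in culture (Osmr and Il1rap higher, Gfral lower), 1 of 13 at 100 mm3 (Pth1r higher), 0 of 13 at 400 mm3 and 3 of 13 at 800 mm3 (Osmr, Acvr2b and Pth1r higher), beside 22.9%, 13.2%, 14.3% and 14.1% of all genes. The difference from the share of all genes was not tested. Their median log2 fold change was 0.12, 0.30, 0.18 and 0.21, beside 0.01, -0.00, 0.03 and -0.01 for all genes.

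Osmr, the oncostatin M receptor chain, was scarce in cultured CT-26 cells. It had 0.233, 0.334 and 0.334 CPM there and 5.82, 6.52 and 6.44 CPM in cultured Colon 26 cells, 21.1-fold higher (log2 4.40 ± 0.19, adjusted p = 2.6e-12, edgeR). Tumors held 9.52 to 15.0 CPM in CT-26 and 18.7 to 30.4 CPM in Colon 26, with no overlap, and the call was made at 800 mm3 (log2 1.31 ± 0.10, adjusted p = 4.5e-06, edgeR). Lifr, the LIF receptor, had at most 3 counts in every culture and 1.96 to 18.9 CPM in tumors. It was at least 64.2-fold higher in CT-26 tumors of 100 mm3 and at least 198-fold higher in Colon 26 tumors than in culture.

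Gfral, the receptor of GDF15, was found where its ligand was not. Cultured CT-26 cells had 5.96, 5.94 and 6.43 CPM and the cultured Colon 26 cells 1, 0 and 0 counts, at least 75.3-fold lower (adjusted p = 1.0e-12, edgeR). Gfral had 0 to 7 counts in the CT-26 tumors (at most 0.218 CPM) and 0 counts in all Colon 26 tumors, which at a floor of 3 counts per library allows a low level. In CT-26 tumors of 100 mm3 it was at least 48.3-fold lower than in culture (adjusted p = 1.8e-06, edgeR).

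Pth1r, the PTHrP receptor, had at most 1 count in every culture and 0.153 to 1.33 CPM in CT-26 tumors against 1.18 to 3.10 CPM in Colon 26 tumors. It was called higher in Colon 26 at 100 mm3 (log2 1.27 ± 0.21, adjusted p = 0.001) and 800 mm3 (1.04 ± 0.28, adjusted p = 0.0098), the opposite side to its ligand. The shared chain Il6st was lower in Colon 26 by less than the minimum fold in all 4 comparisons (log2 -0.86 ± 0.03 in culture and -0.36 ± 0.06 to -0.65 ± 0.10 in tumors). Il6ra, Il11ra1, Acvr1b, Acvr2a, Tnfrsf1a, Tnfrsf1b and Il1r1 were tested and not called in any comparison of models, with absolute log2 values of at most 0.88. Il1rap, the partner chain of the IL-1 receptor, was called in culture (1.04 ± 0.08), and Acvr2b, an activin type II receptor, at 800 mm3 (1.04 ± 0.15, adjusted p = 0.00022, edgeR).

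**Figure D5:**
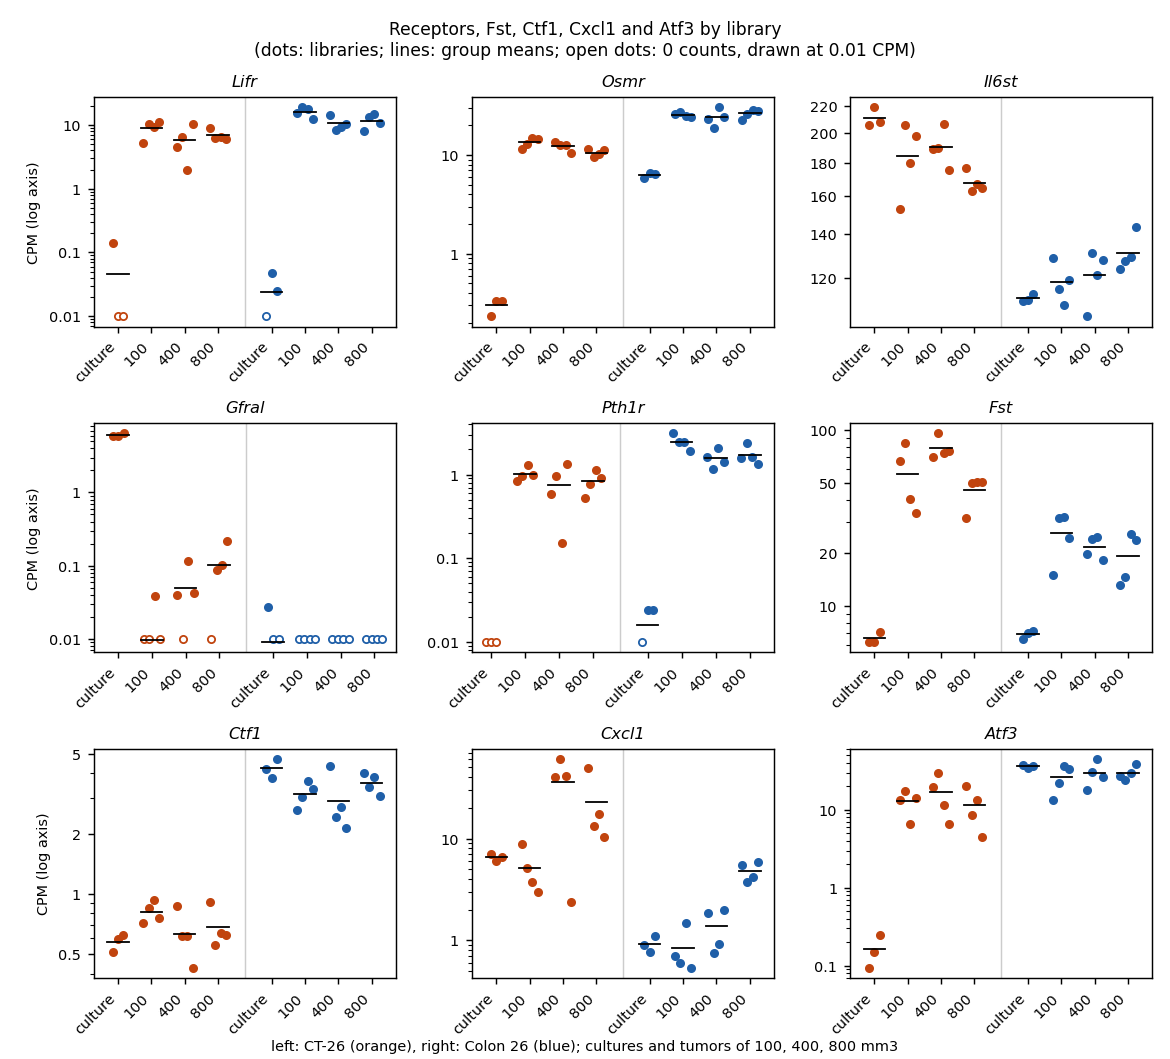
CPM of receptors (Lifr, Osmr, Il6st, Gfral, Pth1r), the activin inhibitor Fst, the gp130 ligand Ctf1, the chemokine Cxcl1 and the stress factor Atf3 in each library, on log axes as in the plot of the 9 members. Gfral was near 6 CPM in the CT-26 cultures and at or near 0 elsewhere, and Ctf1 was higher in every Colon 26 library (2.13 CPM and above) than in any CT-26 library (0.936 CPM and below).

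Other ligands of the same families were counted as a list of 11. Ctf1 was called higher in Colon 26 in all 4 comparisons, Gdf11 in culture only, and Il1b was called lower at 400 mm3; 5 of 11 were tested in culture, and 8 to 9 in tumors, against 22.9%, 13.2%, 14.3% and 14.1% of all genes called. Ctf1 encodes cardiotrophin-1, a gp130 ligand. The CT-26 cultures had 0.512, 0.594 and 0.626 CPM and the Colon 26 cultures 4.19, 3.802 and 4.69 CPM, 7.52-fold higher (log2 2.91 ± 0.19, adjusted p = 6.0e-10, edgeR). Tumors held 0.428 to 0.936 CPM in CT-26 and 2.13 to 4.34 CPM in Colon 26, 3.84-fold, 4.57-fold and 5.24-fold higher at 100, 400 and 800 mm3 (adjusted p = 3.8e-05, 0.00053 and 9.0e-06, edgeR).

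Of 8 inhibitors 2 of 7 tested were called in culture (Socs1 higher, Tnfaip3 lower), 2 of 8 at 100 mm3 (Il1r2 higher, Fst lower), 2 of 8 at 400 mm3 (Fst and Il1r2 lower) and 1 of 8 at 800 mm3 (Fst lower), beside 22.9%, 13.2%, 14.3% and 14.1% of all genes. Fst, the activin-binding follistatin, did not differ by a call in culture (6.24 to 7.14 CPM and 6.49 to 7.18 CPM). It had 31.7 to 95.9 CPM in CT-26 tumors and 13.2 to 32.3 CPM in Colon 26 tumors, 2.19-fold, 3.65-fold and 2.39-fold lower in Colon 26 (adjusted p = 0.019, 1.8e-05 and 0.0011, edgeR). Inhba, which encodes the ligand it binds, was on the same side in these tumors.

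The lists of genes known to respond to these ligands are read against the 22.9%, 13.2%, 14.3% and 14.1% of all genes called between models in culture and at 100, 400 and 800 mm3. Of 12 STAT3 response genes 2 were called higher and 3 lower in culture, 0 and 1 at 100 mm3, 0 and 3 at 400 mm3, and 2 and 2 at 800 mm3, of 12 tested each time, with median log2 fold changes of 0.07, 0.11, -0.33 and 0.10. Bcl3, a nuclear IkB protein, was lower in Colon 26 in all 4 comparisons (log2 -2.23 ± 0.32 to -1.31 ± 0.21). Cebpd was higher in culture (1.49 ± 0.05) and at 800 mm3 (1.09 ± 0.18). Timp1, a metalloprotease inhibitor, was lower at 400 and 800 mm3 (-1.10 ± 0.14 and -1.18 ± 0.13). Lcn2, an iron-binding acute phase protein, changed sides, lower in culture (-1.65 ± 0.04) and at 400 mm3 (-2.21 ± 0.95, adjusted p = 0.09) and higher at 800 mm3 (1.82 ± 0.38, adjusted p = 0.0023, edgeR).

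Of 12 NF-kB response genes 3 were called higher and 2 lower in culture (9 tested), and in tumors 0 were higher and 2, 5 and 1 of 11 tested were lower at 100, 400 and 800 mm3, against the same shares of all genes. The median log2 fold change of the list was -0.17 in culture and -0.61, -0.77 and -0.70 in tumors, below that of all genes (at most 0.03 from 0). Cxcl1, a neutrophil chemokine, was lower in Colon 26 in all 4 comparisons (log2 -2.77 ± 0.16, -2.64 ± 0.44, -4.71 ± 0.86 and -2.23 ± 0.46). Ccl2, a monocyte chemokine, was higher in Colon 26 cultures (2.58 ± 0.46) and lower in its tumors of 100 and 400 mm3 (-1.5 ± 0.32 and -1.38 ± 0.48). The neutrophil sums given above were lower in Colon 26 at 400 and 800 mm3 as well, and the part of these cells was not tested.

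Of 8 activin and SMAD response genes 2 were called higher and 1 lower in culture, 1 and 1 at 100 mm3, 2 and 1 at 400 mm3, and 2 and 1 at 800 mm3, all 8 tested, against 22.9%, 13.2%, 14.3% and 14.1% of all genes. Ltbp2, a TGF-beta binding matrix protein, was higher in Colon 26 in all 4 comparisons (log2 4.43 ± 0.07 in culture and 1.77 ± 0.38 to 2.24 ± 0.14 in tumors). Pmepa1, a SMAD-induced feedback gene, was higher in culture (1.5 ± 0.06) and at 400 mm3 (1.58 ± 0.08). Fst, lower in tumors as described, is also on this list.

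The integrated stress response, known to induce Gdf15 through ATF4 and CHOP (Ddit3), had more genes called lower than higher in Colon 26 in each comparison of models. Of 8 genes 1 was called higher and 2 lower in Colon 26 in culture, 1 and 3 at 100 mm3, 0 and 5 at 400 mm3, and 1 and 4 at 800 mm3, all 8 tested, with median log2 fold changes of -0.10, -0.82, -1.35 and -1.32, against the same shares of all genes called in either direction. Ddit3 was lower in culture (-1.65 ± 0.03), at 400 mm3 (-1.61 ± 0.31) and at 800 mm3 (-1.72 ± 0.33), and Chac1, a CHOP target, at all 4 stages (-2.16 ± 0.29 to -1.21 ± 0.03). Trib3 and Asns, targets of ATF4, were lower in tumors of all sizes (-2.44 ± 0.30 to -1.51 ± 0.21 and -1.72 ± 0.10 to -1.45 ± 0.14). Between culture and 100 mm3 tumors, 7 of 8 were called lower in Colon 26, where 26.9% of all genes were called (975 of 15946 lower), and 5 of 8 in CT-26, where 32.2% were (1546 of 15370 lower).

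Atf3, a stress-induced transcription factor, was the exception. The CT-26 cultures had 0.0931, 0.148 and 0.250 CPM and the Colon 26 cultures 37.1, 34.9 and 36.4 CPM (log2 7.79 ± 0.13, adjusted p = 2.5e-17, edgeR), the same side as Gdf15 in the same cultures. In tumors the levels approached each other, at 4.49 to 29.9 CPM in CT-26 and 13.2 to 44.5 CPM in Colon 26. Atf3 was called higher in Colon 26 at 100 mm3 (1.02 ± 0.36, adjusted p = 0.044) and 800 mm3 (1.37 ± 0.36, adjusted p = 0.0093). Unlike Gdf15 it was not called between culture and tumor in Colon 26 (-0.46 ± 0.28, adjusted p = 0.17), while in CT-26 it rose by 6.26 ± 0.49.

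Of 12 other factors linked to cachexia 1 was called higher and 1 lower in culture (7 tested), 2 and 0 at 100 mm3 (10 tested), 2 and 2 at 400 mm3 (10 tested), and 3 and 0 at 800 mm3 (11 tested), against 22.9%, 13.2%, 14.3% and 14.1% of all genes. Hspa1a and Hspa1b, which encode the stress-induced HSP70, were higher in Colon 26 tumors of all 3 sizes (log2 1.79 ± 0.68 to 2.54 ± 0.66 and 1.62 ± 0.50 to 2.70 ± 0.39). They are near-identical copies whose reads the counting could split between them, so their separate values are uncertain. Lcn2, described above, is also on this list.

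For each member the 3 genes with the closest pattern over the 30 libraries were listed, by Pearson correlation of log2 CPM over 13460 genes with a mean of at least 1 CPM. The points share libraries and groups, so the values only describe the pattern. Osm was closest to Clec7a, Pf4 and Il1b (0.974, 0.973 and 0.971) and Tnf to AI504432, Trpm2 and Ch25h (0.988, 0.987 and 0.987). Pthlh was closest to Casp12, Vmn1r43 and Apln (0.964, 0.964 and 0.963), Gdf15 to Dgkh, Aebp2 and Smarca5 (0.955, 0.954 and 0.954), and Il11 to Gorab, Gm26819 and Eps8 (0.948, 0.944 and 0.943). Inhba was closest to Vldlr, D5Ertd579e and Rere (0.944, 0.924 and 0.924) and Lif to Hmgxb3, Trim11 and Csf1 (0.915, 0.911 and 0.908). For the members of low counts the best values were lower, with Il1a closest to Il1b, Clip2 and Acat3 (0.771, 0.769 and 0.767) and Il6 to Ano8, Rsrc2 and Gm37254 (0.731, 0.729 and 0.707).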

How the data were processed

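RNA was sequenced from 6 culture and 24 tumor libraries, prepared from poly-A RNA with Illumina kits. The authors deposited estimated counts per gene (22.6% of non-zero values were not whole) and FPKM values; their methods name Array Studio and an Ensembl annotation for the counts. The aligner, genome build and strand handling are not given in the sources used here. Of 53431 identifiers 52207 matched a symbol; Ctgf was looked up as Ccn2.

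Here counts were rounded and tested with edgeR 4.0.16 in R 4.3.3 (quasi-likelihood, TMM, filterByExpr, Benjamini-Hochberg over all genes tested), with 1 fit per comparison on its own groups. Genes were called when the adjusted p did not exceed 0.1 and the log2 change was 1 or more in size, thresholds taken from the study's methods. The SE is the log2 fold change over the square root of F. CPM uses TMM factors over all 30 libraries. A group with at most 3 counts in every library is at the floor, and a fold against it is a bound set by 3 counts in its shallowest library; bounds cover counting error only. The procedure was tested on simulated data with a fixed spread between libraries, in which only genes of higher counts were changed. That check does not cover genes of few counts. Replicates differed by 2.91 to 4.53 times counting variance in culture and by 9.86 to 73.9 times in tumors, and each library was kept as its own sample. The culture values do not show that those libraries came from separate cultures. Depth limits genes of few counts most (Il6, Il1a, and Gdf15 in CT-26). DESeq2 1.42.0, limma 3.58.1 on log2(FPKM + pseudocount of 1 or 0.1), other scalings, filters and thresholds, and leaving out each library were alternatives. Coordinates come from GENCODE M21.

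The members and lists were chosen with earlier results of these data known. All 9 members are described. Of each other list, up to 5 genes called in at least 2 comparisons of models in 1 direction were named by their mean absolute change, and all receptors were named. Il1b, Gdf11, Socs1, Tnfaip3 and Il1r2 fall outside this rule and were named after their values were seen. 1 gene of the list of related ligands is not reported here.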

Additional observations from a re-analysis of the deposited data

Results flagged for a closer look

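Of 54 sets of 4 tumors (9 genes in 6 groups), 2 held a tumor whose gap to the rest passed Dixon's 95% limit, and chance flags about 1 in 20 such sets. Pthlh was 10.8 CPM in the first CT-26 tumor of 800 mm3, while the other 3 had 16.7 to 16.9 CPM. Tnf was 5.79 CPM in the second CT-26 tumor of 100 mm3, while the others had 1.82 to 2.40 CPM. Ptprc (186 CPM) and the T cell sum (54.7 CPM) were highest of their group in the same tumor. So were the macrophage (1579 CPM), neutrophil (22.1 CPM) and mast cell (76.3 CPM) sums. The part of these cells was not tested.

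The change from culture to 100 mm3 tumors differed between the models for 3 genes by the interaction test of edgeR: Lif (-1.18 on the log2 scale, Colon 26 minus CT-26), Gdf15 (-5.39) and Pthlh (-1.60). The Gdf15 value rests on CT-26 cultures at 1 to 3 counts. Lif fell in both models, and Pthlh rose in both.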

How the results depend on the processing

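No called member reversed its sign under any alternative. Of 1893 values for 101 tested pairs of member and comparison, 1847 kept their side of the thresholds, 13 lost a call and 33 gained one. Gdf15 lost no call, and the losses were of Pthlh, Il1a, Il11, Lif and Il6. With no minimum fold change the number of called members was 6 instead of 3 in culture, 5 instead of 3 at 100 mm3 and 3 instead of 1 for 800 against 100 mm3 in Colon 26. With at least 10 counts required in every library it was 2 instead of 5 (CT-26) and 3 instead of 5 (Colon 26) for tumors against culture, since only 5 and 6 members were then tested. For 400 against 100 mm3 in CT-26 it was 1 instead of 0 with DESeq2 and with all 30 libraries in one fit. For 800 against 100 mm3 in Colon 26, limma on log2(FPKM + 1) called 0 instead of 1 (Il6 0.76). Leaving out 1 library gave 0 to 2 for 400 against 100 mm3 in CT-26, 1 to 2 for 800 against 100 mm3 in Colon 26 and 0 to 2 for the model difference in growth. Over all genes, no minimum fold raised the calls in culture and at 100, 400 and 800 mm3 from 3283, 2038, 2176 and 2192 to 11842, 8710, 7963 and 9213, and limma on log2(FPKM + 1) lowered them to 1519, 861, 951 and 914. For tumor against culture these settings gave 11601 and 2648 instead of 4952 (CT-26), 12581 and 1946 instead of 4296 (Colon 26) and 8421 and 1255 instead of 2904 (model difference). With at least 10 counts the calls were 1996 in culture, 1356 and 1433 at 100 and 400 mm3, 2527, 1818 and 1487 for these tissue comparisons, and without a filter 3469 at 800 mm3. For growth, DESeq2 called 150, 39, 42 and 309 genes where edgeR called 0, 0, 2 and 205, the fit of all 30 libraries 379, 92, 25 and 100, and for the model difference 114 and 39 instead of 5. For 800 against 100 mm3 in Colon 26 no minimum fold gave 1028, at least 10 counts 90 and limma on log2(FPKM + 1) 62. For 400 against 100 mm3, CT-26 gave 335 calls without tumor 4 of 400 mm3 and 144 without the second of 100 mm3, Colon 26 at 400 mm3 gave 391 without its first tumor, and the model difference in growth gave 128 without the first CT-26 tumor of 800 mm3. The other alternatives for growth gave 0 to 64 calls at 400 mm3 in CT-26. The cause was not tested. No paired analysis was possible because the labels give the groups no shared replicate numbers.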
